A study of Rattus norvegicus with 6 samples.

Results

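Collagens were examined as a family of 44 genes, every gene of the deposited tables whose symbol reads Col, a number, a and a number, out of 29468 named genes. The members were grouped by the structure that their proteins build. There were 11 fibrillar, 9 network, 9 FACIT, 4 transmembrane and 2 multiplexin genes, and outside these classes 6 type VI genes (beaded filaments), Col7a1 (anchoring fibrils), Col26a1 and Col28a1. RNA was sequenced from Schwann cell precursors (SCPs), the early glia of embryonic nerves, and from repair Schwann cells (RSCs), the form that adult Schwann cells take in a cut nerve. The 3 SCP samples came from sciatic nerves and brachial plexus of wild type LEWIS rat embryos at embryonic day 14 with no treatment. The 3 RSC samples came from the distal part of transected sciatic nerves of wild type LEWIS rats aged 10 weeks, 1 week after the cut. Age, injury and dissection site therefore differ together between the groups and cannot be told apart. Both preparations were cells dissociated with collagenase and trypsin, not sorted, and were put on uncoated flasks to let adherent fibroblasts and macrophages settle out. The methods give a higher collagenase concentration and a longer digestion for the RSCs, so the dissociation differed between the groups as well. The methods describe the samples of a group as sets of cells from separate sets of experiments. No label ties a set to its own animals, so p-values measure the spread between these sets.

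Levels are given in FPKM, which scales read fragments by the length of the transcript and the size of the library. Because FPKM is per length, levels can be set beside each other between genes. Relative depth, from the ratio of read coverage to FPKM with SCP 2 set at 1, was 0.933, 1.00 and 0.878 for SCP 1 to 3 and 0.799, 0.841 and 0.789 for RSC 1 to 3, so the SCP libraries were somewhat deeper. Each table holds named reference transcripts and transcripts without a name that were assembled from that sample alone. Of the summed FPKM, transcripts without a name held between 26.1% and 31.9% in the SCPs and between 18.6% and 23.4% in the RSCs. Every collagen was therefore measured from its named transcripts and again with overlapping unnamed transcripts of the same assembled gene added. Such unnamed transcripts existed for 27 of the 44 genes in at least 1 sample.

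Collagens are secreted or membrane proteins of 3 chains wound around each other. Fibrillar collagens pack into the banded fibrils of connective tissue, network collagens form sheets such as the type IV lattice of basal laminae, and FACITs sit on the surface of fibrils. Transmembrane collagens stay anchored in the cell membrane, and multiplexins are proteoglycans of the basement membrane zone. In nerve, Schwann cells lay down a basal lamina with type IV collagen as they mature, SCPs are known to lack one, and the fibrils between axons are mostly of types I and III, to which nerve fibroblasts contribute.

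The RSCs held more collagen RNA than the SCPs. The FPKM summed over all 44 genes was 1324, 1800 and 2051 in the SCPs and 5420, 7017 and 6022 in the RSCs, and the groups did not overlap. The ratio of the means was 3.57, and the collagens took 0.308% of the named FPKM in the SCPs and 1.204% in the RSCs. Fibrillar genes made up most of it in both groups, 62.7% ± 1.12 in the SCPs and 76.1% ± 1.63 in the RSCs (SD, n = 3 each). FACITs were the second class of the SCPs at 19.0% ± 2.57 but 2.40% ± 0.412 in the RSCs, where type VI genes were second at 15.0% ± 1.46 against 5.81% ± 1.37 in the SCPs. With unnamed transcripts added, the FACIT share was 19.0% ± 2.025 in the SCPs and 3.75% ± 0.418 in the RSCs. Network genes took 7.34% ± 1.18 and 2.54% ± 0.214. These sums are descriptions, without a test.

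**Figure D1:**
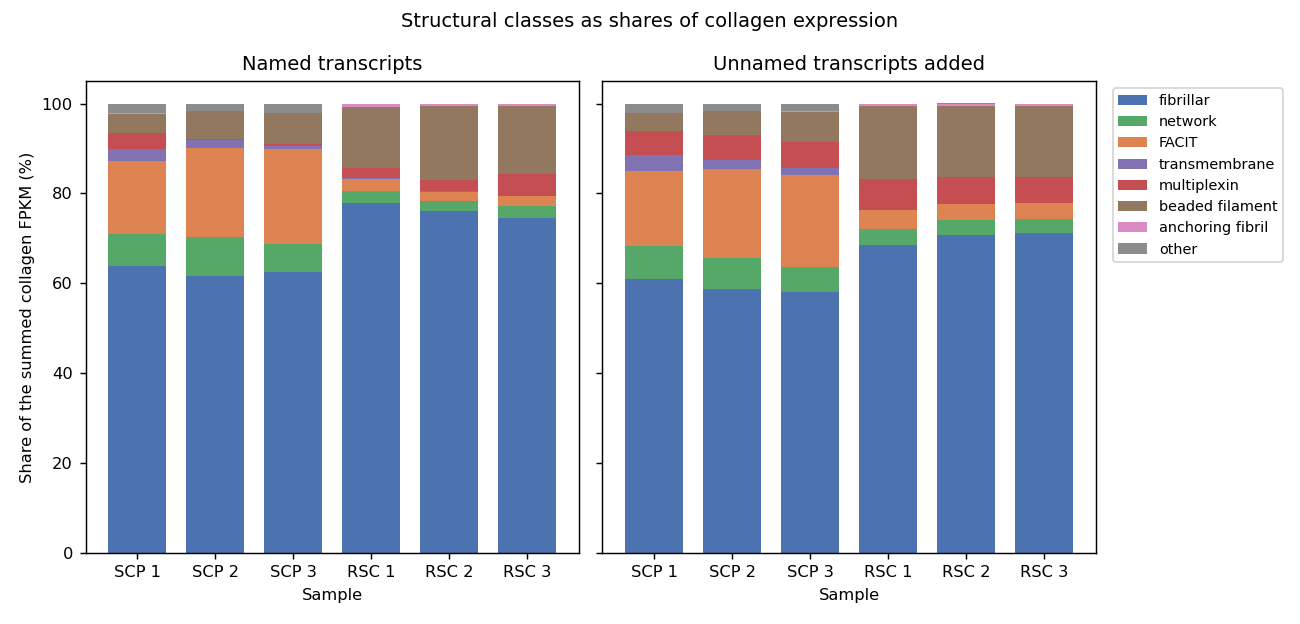
Share of the summed collagen FPKM in percent (vertical axis) held by each structural class (colours) in each of the 3 SCP and 3 RSC samples, from named transcripts (left) and with unnamed transcripts added (right). The FACIT share lies between 16.1% and 21.0% in the SCPs and between 1.995% and 2.82% in the RSCs on the left, and the type VI (beaded filament) share is larger in every RSC sample on both sides.

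A few genes made up most of the collagen FPKM. Col3a1, Col1a2 and Col1a1 led in the SCPs and together held 44.0% of collagen FPKM, followed by Col20a1 with 9.60%, Col9a3 with 4.92% and Col2a1 with 4.78%. Col1a2 is summed here over 2 copies in rn6, and its first copy alone had 95.5, 122.9 and 142.6 FPKM in the SCPs, under Col20a1 in each sample. In the RSCs the same 3 genes held 70.1%, in the order Col1a1, Col3a1 and Col1a2, followed by Col6a2 with 8.28% and Col6a1 with 6.03%. Without Col1a1, Col1a2 and Col3a1, the other 8 fibrillar genes summed to 320 ± 63.4 FPKM in the SCPs and 368 ± 30.8 in the RSCs, a ratio of 1.15.

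Of the 44 genes, 31 reached 1 FPKM on average across all samples and were compared. At p under 0.01, 12 of the 31 were higher in the RSCs (38.7%) and 6 were higher in the SCPs (19.4%), where 18.1% and 22.4% of all 13003 genes compared were. More than 4-fold, a log2 fold change over 2 on the log2(FPKM + 1) scale, were 8 genes in favour of the RSCs (25.8%) and 5 in favour of the SCPs (16.1%), against 7.81% and 3.78% of all genes. All 3 RSC values lay above all 3 SCP values for 13 members and below them for 6, against 24.9% and 33.7% of all genes. The 13 that did not pass the filter on low values are not part of these counts. The median log2 fold change, RSC minus SCP, was 0.34 for the 31 collagens and -0.17 for all genes. The collagen median moved between 0.10 and 0.72 as 1 library at a time was left out: it was 0.72 without SCP 1, 0.10 without SCP 2, 0.64 without SCP 3 and 0.53 without RSC 2. Median-of-ratios scaling brought the median of all genes to 0.01, a shift that adds to every fold change given here, and moved the share of all called genes that were higher in the RSCs from 44.6% to 55.7%. The counts of collagens at p under 0.01 were 12 and 6 under that scaling too, while those over 4-fold were 9 and 4.

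**Figure D2:**
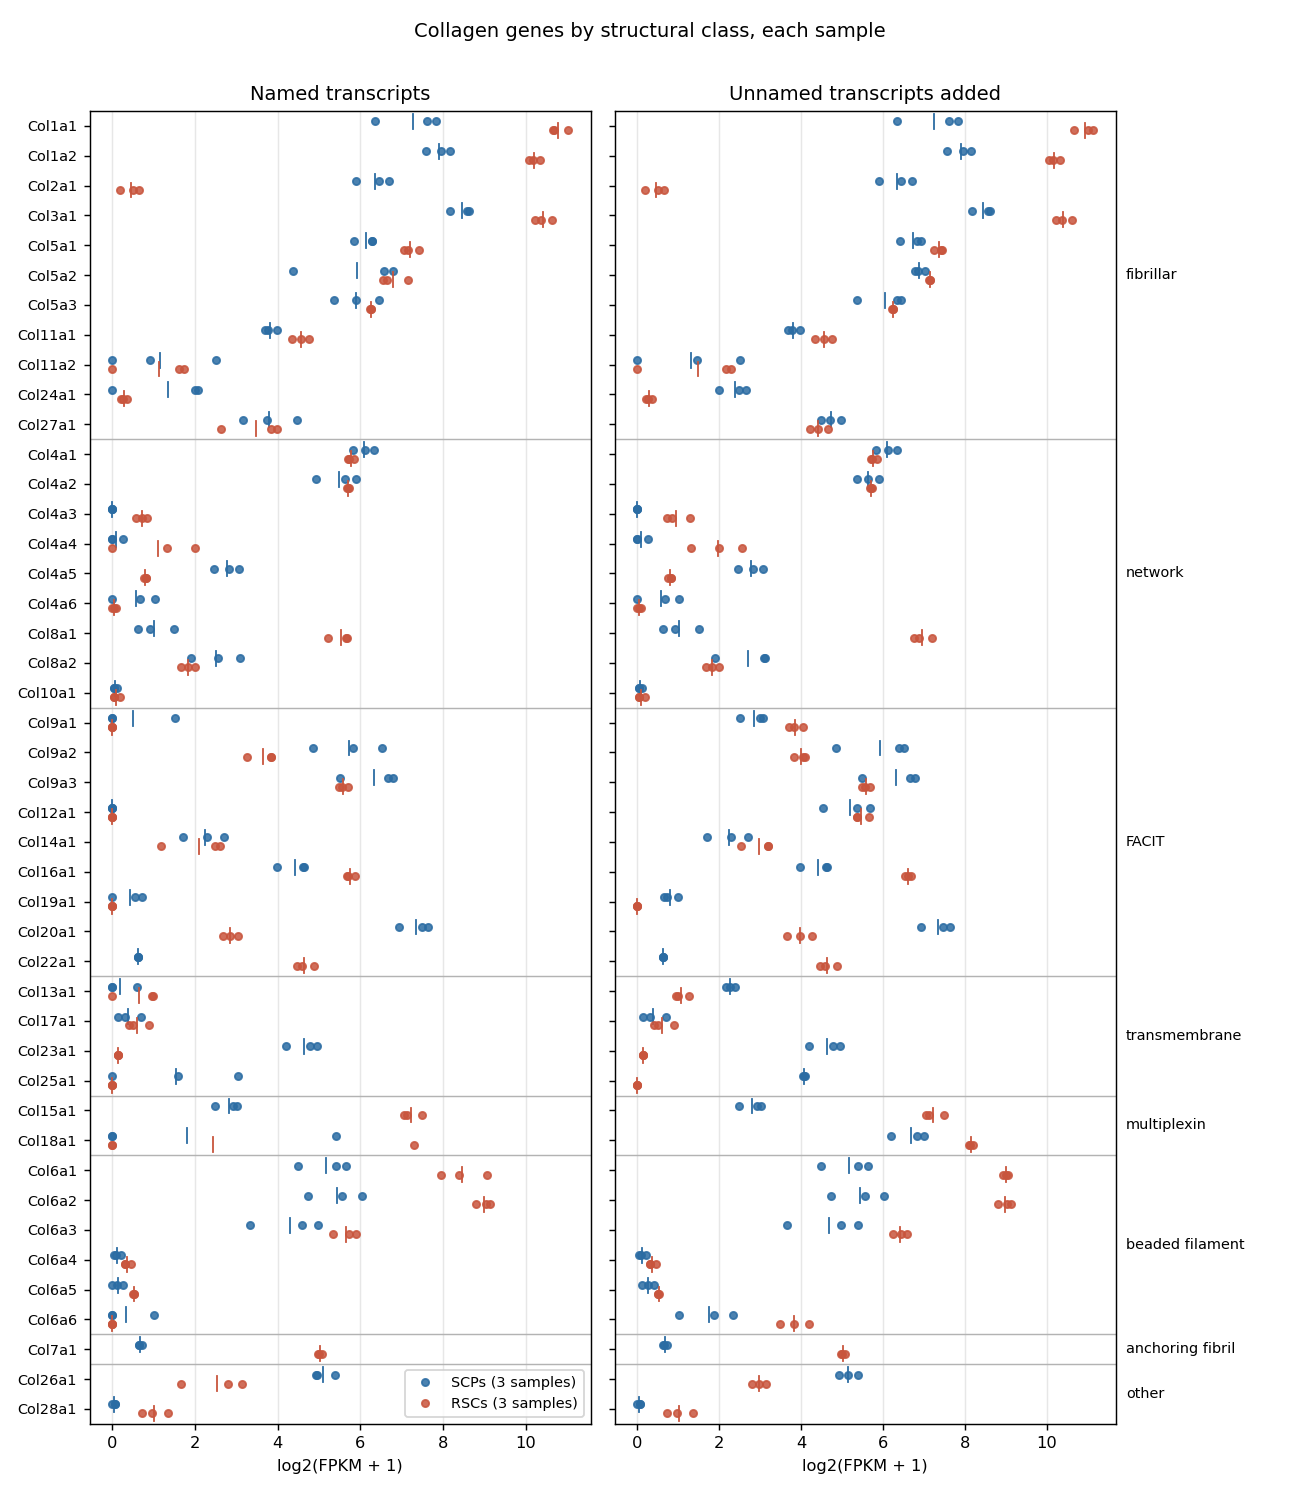
Level of each of the 44 collagen genes as log2(FPKM + 1) in each sample, SCPs in blue and RSCs in red with a bar at the mean of 3 samples, by structural class, from named transcripts (left) and with unnamed transcripts added (right). The 3 dots of Col2a1, Col20a1 and Col23a1 lie far to the right in the SCPs, those of Col7a1, Col8a1, Col15a1 and Col22a1 in the RSCs, and Col12a1 moves from 0 on the left to between 22.1 and 50.0 FPKM on the right.

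Among the fibrillar genes, 5 of 11 were higher in the RSCs (45.5%, against 18.1% of all genes) and 1 in the SCPs (9.09%, against 22.4%), with a median log2 fold change of 0.75 against -0.17 for all genes. With unnamed transcripts added, the fibrillar median was 0.25 against -0.24 for all genes. Type I collagen, the main protein of connective tissue fibrils, led the genes higher in the RSCs. Col1a1 (chromosome 10, 82745801 to 82762790 on rn6) had 80.0, 195 and 226 FPKM in the SCPs and 1614, 2076 and 1628 in the RSCs, a log2 fold change of 3.52 (SE 0.40, adjusted p = 0.000941). SCP 1 was the lowest sample, and the lowest RSC value was several times the highest SCP value. In RSC 3 a further unnamed Col1a1 transcript held 617 FPKM. Col1a2, the second chain of type I, had 190, 247 and 285 FPKM against 1072, 1291 and 1146, a log2 fold change of 2.29 (SE 0.16, adjusted p = 0.000177). The rn6 tables carry this gene in 2 places on chromosome 4, from 29529504 to 29565272 and from 31534225 to 31569152, with nearly the same level at each, such as 95.5 and 94.2 FPKM in SCP 1 and 544 and 528 in RSC 1. RefSeq's annotation of the later assembly GRCr8 lists Col1a2 once. How Cufflinks divided reads between the copies is not stated, so the summed level of Col1a2 is uncertain, while the ratio of the copies stayed between 0.994 and 1.04 in the 6 samples. The RefSeq sequence of the 250 bases before the Col1a2 start is shown because this gene is high in both groups and its level depends on the assembly (GRCr8 chr4:33518307-33518556, plus strand). Capitals mark matches to CCAAT and TATAA, the first on the minus strand where it reads ATTGG.
Col1a2: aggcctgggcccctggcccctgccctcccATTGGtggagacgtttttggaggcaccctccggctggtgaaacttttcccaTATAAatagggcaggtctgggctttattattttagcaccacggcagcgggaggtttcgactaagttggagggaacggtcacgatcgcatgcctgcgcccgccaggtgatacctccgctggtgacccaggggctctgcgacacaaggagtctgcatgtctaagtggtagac

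Col3a1, the fibrillar chain of type III collagen that accompanies type I in soft tissue, had 286, 391 and 379 FPKM in the SCPs and 1196, 1585 and 1329 in the RSCs. The log2 fold change was 1.96 (SE 0.16, adjusted p = 0.000292), just inside 4-fold. The chains of type V, which mixes into type I fibrils and limits their width, changed less. Col5a1 had 56.9, 76.7 and 76.9 FPKM in the SCPs against 131, 140.1 and 170 in the RSCs, a log2 fold change of 1.06 (SE 0.16, adjusted p = 0.00293). Col5a2 had 110, 19.7 and 93.9 FPKM against 92.4, 142 and 98.1 (log2 fold change 0.87, adjusted p = 0.33). SCP 2 was low, SCP 1 and SCP 3 lay above RSC 1, and the log2 fold change without SCP 2 was 0.10. Adding unnamed transcripts brought SCP 2 to 129 FPKM, and the 3 SCP values of 110, 129 and 114 all lay under the RSC values of 141, 142 and 138, with a log2 fold change of 0.25 that did not pass p under 0.01 (adjusted p = 0.0283). Col5a3, whose chain Schwann cells are known to secrete, had 40.3, 58.2 and 86.6 FPKM in the SCPs and the narrow range of 74.2, 74.8 and 75.4 in the RSCs (log2 fold change 0.34, adjusted p = 0.34).

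Col2a1, the chain of the main cartilage collagen, stood at the other end. It had 58.6, 85.9 and 103 FPKM in the SCPs and 0.423, 0.570 and 0.139 in the RSCs, a log2 fold change of -5.90 (SE 0.25, adjusted p = 3.82e-05), the lowest of the 31 members. The longer of its 2 named transcripts held most of the level in every SCP sample, with 48.2, 85.9 and 85.1 FPKM, against 10.5, 0 and 17.8 for the shorter. The listed cartilage markers outside the collagens were low in the same samples, while the cartilage type IX chains Col9a2 and Col9a3 were not, as described with the FACITs. Acan, the main cartilage proteoglycan, had 0.0509, 0.525 and 0.587 FPKM in the SCPs, and the 5 chondrogenic markers with a value summed to 2.04, 2.60 and 4.29 FPKM there. Col11a1, which copolymerises with types II and V, had 12.6, 14.8 and 11.9 FPKM in the SCPs and 19.3, 25.9 and 22.8 in the RSCs, a log2 fold change of 0.75 (SE 0.15, adjusted p = 0.0096). That call was lost without SCP 1, SCP 3, RSC 2 or RSC 3, with values between 0.65 and 0.74. Col11a2 lay between 0 and 4.70 FPKM in all samples and overlapped. Of the 2 long, atypical fibrillar chains, Col27a1 had 7.86, 21.2 and 12.4 FPKM against 13.2, 5.17 and 14.8, and overlapped too. Col24a1 had 2.97, 0 and 3.18 FPKM against 0.203, 0.148 and 0.274, with SCP 2 listed at 0. Its unnamed transcripts brought SCP 2 to 4.56 FPKM and SCP 3 to 5.33, all SCP values then lay far above the RSC values, and the log2 fold change of -2.10 passed the test (adjusted p = 0.000215).

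The network class held type IV, type VIII and type X genes, and of the 5 compared 1 was higher in each direction, a share near that over all genes (18.1% in the RSCs and 22.4% in the SCPs). Col4a1 and Col4a2, the chains of the common basal lamina network, were at like levels in both groups. Col4a1 had 55.8, 79.6 and 68.5 FPKM in the SCPs and 56.4, 52.2 and 51.3 in the RSCs, a log2 fold change of -0.33 (SE 0.14, adjusted p = 0.104) with overlapping groups. Without SCP 1 its difference of -0.46 passed p under 0.01. Col4a2 had 29.2, 58.5 and 48.5 FPKM against 51.1, 52.0 and 49.9, a log2 fold change of 0.22 (SE 0.25, adjusted p = 0.510). The pair lie head to head, 72 bases apart on chromosome 16 of rn6, where Col4a2 ends at 83522089 and Col4a1 begins at 83522162. The 76 bases between their RefSeq starts on GRCr8 are shown because both genes are read outward from this stretch (chr16:84885521-84885596, plus strand, with Col4a1 to the right). Capitals mark GGGCGG, found on the minus strand.
Col4a2-Col4a1: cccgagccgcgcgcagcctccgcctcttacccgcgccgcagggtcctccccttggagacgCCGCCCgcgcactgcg

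The remaining type IV chains were low. Col4a5, an X-linked chain of kidney and smooth muscle basement membranes, had 6.03, 7.37 and 4.47 FPKM in the SCPs and 0.758, 0.687 and 0.762 in the RSCs, a log2 fold change of -1.98 (SE 0.23, adjusted p = 0.00107). Its partner Col4a6 lay between 0 and 1.03 FPKM in the SCPs and between 0 and 0.0580 in the RSCs. Col4a3, listed at 0 in all SCPs, had 0.784, 0.478 and 0.653 FPKM in the RSCs, and Col4a4 did not reach 1 FPKM in any SCP sample. Col4a4 with its unnamed transcripts had 0, 0 and 0.190 FPKM in the SCPs and 4.93, 3.00 and 1.48 in the RSCs (log2 fold change 1.88, adjusted p = 0.00239). Col8a1, a chain of the short type VIII collagen of vessel walls, had 0.537, 1.82 and 0.879 FPKM in the SCPs and 36.3, 50.4 and 49.4 in the RSCs. Its log2 fold change of 4.51 (SE 0.27, adjusted p = 0.000101) was the highest of the 31 members on the log2(FPKM + 1) scale, while with 0.1 added in place of 1 it was 5.40 and that of Col7a1 was higher at 5.51. This rank also depended on single libraries. Without SCP 1 Col7a1 was higher, at 4.328 against 4.316 for Col8a1. Col15a1 was higher without SCP 3 (4.472 against 4.461) and without RSC 3 (4.464 against 4.442). The RSC values of Col8a1 were 107, 145 and 117 FPKM with unnamed transcripts added (log2 fold change 5.93). Its partner Col8a2 did not follow, with 2.72, 7.47 and 4.92 FPKM against 2.17, 3.01 and 2.54 (log2 fold change -0.68, adjusted p = 0.148). Col10a1, the collagen of hypertrophic cartilage, stayed at or below 0.132 FPKM in all 6 samples.

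FACIT genes went in both directions, 2 of the 6 compared being higher in each group (33.3% each, against 18.1% of all genes for the RSCs and 22.4% for the SCPs). Col20a1 was among the most abundant collagens of the SCPs, with 122, 177 and 198 FPKM, and had 5.34, 7.18 and 6.17 in the RSCs. Its log2 fold change was -4.50 (SE 0.21, adjusted p = 4.46e-05), and -3.39 with unnamed transcripts added, where the RSC values were 14.7, 11.6 and 18.1 FPKM. The type IX chains, which bind to the surface of type II fibrils, differed among themselves. Col9a2 had 27.8, 55.3 and 90.6 FPKM in the SCPs and 13.3, 8.47 and 13.2 in the RSCs, a log2 fold change of -2.09 (SE 0.44, adjusted p = 0.0102). This call was lost without SCP 2 (-2.05) or without RSC 2 (-1.90). Col9a3 had 44.1, 101 and 109.7 FPKM against 50.5, 43.7 and 46.3 and overlapped through SCP 1 (log2 fold change -0.74, adjusted p = 0.134), while without SCP 1 it passed at -1.15. Col9a1 was listed at 0 in 5 of 6 samples by name. With unnamed transcripts added it had 7.34, 6.95 and 4.64 FPKM in the SCPs and 12.0, 15.4 and 13.2 in the RSCs, higher in the RSCs (log2 fold change 1.00, adjusted p = 0.00313).

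The other FACITs included chains found along type I fibrils. Col16a1 had 14.8, 23.8 and 23.3 FPKM in the SCPs and 57.9, 51.2 and 50.1 in the RSCs, a log2 fold change of 1.35 (SE 0.20, adjusted p = 0.00257), which was 2.21 with unnamed transcripts added. The levels listed for some of its 8 named transcripts differed in kind. One of 5443 bases held 27.5, 28.2 and 25.1 FPKM in the RSCs and was listed at 0 in all SCP samples. Another of 5427 bases held 9.43, 6.64 and 4.81 FPKM in the SCPs and was listed at 0 in all RSC samples. How reads were assigned among transcripts this alike was not tested. Col22a1, known at tissue junctions such as that of muscle and tendon, had 0.542, 0.534 and 0.541 FPKM in the SCPs and 21.2, 28.2 and 23.0 in the RSCs, a log2 fold change of 4.02 (SE 0.18, adjusted p = 3.84e-05). Col14a1 lay between 1.27 and 5.49 FPKM in all samples and overlapped. Col19a1 was listed at 0 in the RSCs and had 0.454, 0 and 0.642 FPKM in the SCPs. Col12a1, which coats type I fibrils, was listed at 0 by name in every sample, and its unnamed transcripts held 22.1, 39.9 and 50.0 FPKM in the SCPs and 40.5, 49.1 and 40.3 in the RSCs (log2 fold change 0.28, adjusted p = 0.419). The groups overlapped, and nothing of this gene is seen in the named transcripts.

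Of the 4 transmembrane collagens, Col23a1 was higher in the SCPs by name and 2 more were once unnamed transcripts were added. Col23a1 had 29.9, 26.4 and 17.3 in the SCPs and 0.0982, 0.0895 and 0.0949 FPKM in the RSCs, a log2 fold change of -4.51 (SE 0.24, adjusted p = 6.89e-05), and the groups lay far apart. Col25a1, which is needed for motor axons to innervate muscle, had 7.15, 2.02 and 0 FPKM by name in the SCPs and was listed at 0 in all RSC samples. Its SCP samples came together at 16.1, 15.9 and 15.6 FPKM with unnamed transcripts added, and it then passed the test (log2 fold change -4.08, adjusted p = 2.38e-06), although the size depends on the added 1 where every RSC value is listed at 0. Col13a1, a collagen of the neuromuscular junction, showed the same effect of naming. By name it did not reach 1 FPKM in any sample, and with unnamed transcripts added it had 4.23, 3.52 and 3.77 FPKM in the SCPs against 0.984, 0.931 and 1.38 in the RSCs (log2 fold change -1.21, adjusted p = 0.000693). All 3 transmembrane genes compared with unnamed transcripts added were higher in the SCPs, against 34.2% of all genes in that table. Col17a1, a hemidesmosome protein of epithelia, lay between 0.0922 and 0.859 FPKM in all samples.

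Promoters of a pair of genes with opposite differences are shown, Col23a1 for the SCPs and, from the multiplexin class, Col15a1 for the RSCs. Both stretches are the 250 bases before the RefSeq start on GRCr8, on the plus strand (chr10:36050077-36050326 for Col23a1 and chr5:66297296-66297545 for Col15a1). Capitals mark 2 matches to GGGCGG, both on the minus strand, in Col23a1 and 1 match to TATAA in Col15a1.
Col23a1: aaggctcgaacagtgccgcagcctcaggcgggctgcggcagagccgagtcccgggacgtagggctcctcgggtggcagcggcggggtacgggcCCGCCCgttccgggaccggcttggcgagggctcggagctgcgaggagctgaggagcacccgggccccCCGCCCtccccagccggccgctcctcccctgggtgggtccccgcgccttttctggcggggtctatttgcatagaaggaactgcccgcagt
Col15a1: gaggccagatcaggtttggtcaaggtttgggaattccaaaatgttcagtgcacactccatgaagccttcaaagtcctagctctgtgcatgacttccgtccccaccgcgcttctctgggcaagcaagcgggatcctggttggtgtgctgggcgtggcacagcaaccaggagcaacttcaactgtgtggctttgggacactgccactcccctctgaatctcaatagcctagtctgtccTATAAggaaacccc

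The same motifs and TGANTCA were searched on both strands of the 250 bases before each start. RefSeq's promoter table matched 35 of the 44 genes by symbol. CCAAT, the letters bound by NF-Y upstream of many starts, stood in 11 of these 35 and in 34.3% of all 27457 promoters of the table. GGGCGG, the letters bound by Sp factors, stood in 19 of the 35 and in 32.4% of all. TGANTCA, the letters bound by AP-1, stood only in Col6a1 and in 6.36% of all. TATAA stood in 7 of the 35 and in 24.1% of all. A match is a string of letters and not a site known to be used.

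Of the 2 multiplexins, 1 was higher in the RSCs by name, against 18.1% of all genes, and both were once unnamed transcripts were added, against 23.2%. Col15a1 had 4.62, 7.06 and 6.60 FPKM in the SCPs and 132, 178 and 138 in the RSCs, a log2 fold change of 4.41 (SE 0.19, adjusted p = 3.77e-05). Col18a1, whose end is cut off as endostatin, was above 0 by name in 1 sample of each group only. It had 41.4 FPKM in SCP 1 and 157 in RSC 3, and was listed at 0 in the others. Including unnamed transcripts it had 72.8, 113 and 128 FPKM in the SCPs and 291, 274 and 280.0 in the RSCs, a log2 fold change of 1.46 (SE 0.20, adjusted p = 0.00082). The class sum depended on these values: the mean log2 difference was 3.89 by named transcripts, 4.81 without SCP 1, and 1.9994 with unnamed transcripts added.

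Type VI collagen forms beaded filaments around cells from chains of Col6a1, Col6a2 and another chain, most often Col6a3. Col6a2 had 25.4, 46.1 and 64.1 FPKM in the SCPs and 447, 561 and 521 in the RSCs, a log2 fold change of 3.55 (SE 0.33, adjusted p = 0.000441). Col6a1 had 21.3, 41.2 and 48.9 FPKM against 247, 535 and 331, a log2 fold change of 3.29 (SE 0.40, adjusted p = 0.00124). RSC 1 and RSC 3 held more Col6a1 in unnamed transcripts, and with these the RSC values came together at 488, 535 and 516 FPKM. Col6a3 differed less, with 9.06, 22.9 and 30.3 FPKM against 39.0, 58.4 and 51.6, a log2 fold change of 1.35 that did not pass p under 0.01 (adjusted p = 0.0463) although the groups did not overlap. It passed with unnamed transcripts added, at 1.75 (adjusted p = 0.00978), and was 0.45 from its highest named transcript and 0.87 without SCP 1, neither passing. The other chains that can stand in for Col6a3 were low by name: Col6a4 and Col6a5 stayed under 0.45 FPKM, and Col6a6 had 1.01 FPKM in SCP 1 and was listed at 0 elsewhere. Counted with its unnamed transcripts, Col6a6 had 1.01, 2.68 and 4.004 FPKM in the SCPs and 10.1, 17.3 and 13.1 in the RSCs, higher in the RSCs (log2 fold change 2.09, adjusted p = 0.00223). Col7a1, the anchoring fibril collagen of skin, was under 1 FPKM in each SCP sample (0.551, 0.574 and 0.645) and had 30.4, 30.8 and 32.8 in the RSCs, a log2 fold change of 4.35 (SE 0.14, adjusted p = 2.16e-05). Col26a1 went the other way, with 29.3, 29.9 and 41.1 FPKM in the SCPs and 5.98, 7.76 and 2.17 in the RSCs (log2 fold change -2.56, SE 0.40, adjusted p = 0.00337). Col28a1, a collagen known from peripheral nerve, had 0.0425, 0 and 0.0447 FPKM in the SCPs and 1.55, 0.940 and 0.648 in the RSCs, too low to be compared.

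Chains that share a protein were set beside each other by the ratio of their FPKM in each sample. Col1a1 to Col1a2 was 0.422, 0.789 and 0.791 in the SCPs and 1.51, 1.61 and 1.42 in the RSCs with both copies of Col1a2 summed. Against the first Col1a2 copy alone the ratio was 0.838, 1.58 and 1.58 in the SCPs and 2.97, 3.15 and 2.80 in the RSCs, so the order of the groups did not depend on the copies while the level of the ratio did. Col4a1 to Col4a2 was 1.91, 1.36 and 1.41 in the SCPs and closer to 1 in the RSCs at 1.10, 1.00 and 1.03. Col6a3 to Col6a1 was 0.425, 0.556 and 0.618 in the SCPs and 0.158, 0.109 and 0.156 in the RSCs. Col8a1 to Col8a2 differed most, with 0.198, 0.244 and 0.179 in the SCPs against 16.7, 16.8 and 19.5 in the RSCs. Col9a3 to Col9a2 was 1.59, 1.82 and 1.21 against 3.80, 5.16 and 3.51. Each of these ratios kept the groups apart with unnamed transcripts added as well, while Col6a1 to Col6a2 and Col5a1 to Col5a2 overlapped by name and lay apart with the RSCs higher once unnamed transcripts were added. Col6a1 to Col6a2 was then 0.840, 0.893 and 0.763 in the SCPs against 1.09, 0.952 and 0.990 in the RSCs, and Col5a1 to Col5a2 was 0.769, 0.873 and 1.05 against 1.08, 1.21 and 1.23. Col9a1 to Col9a2, for which Col9a1 is mostly listed at 0 by name, was 0.264, 0.0838 and 0.0512 against 0.770, 0.962 and 1.00 with them. They are descriptions: with 3 samples a group an exact permutation test cannot go below p = 0.10.

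**Figure D3:**
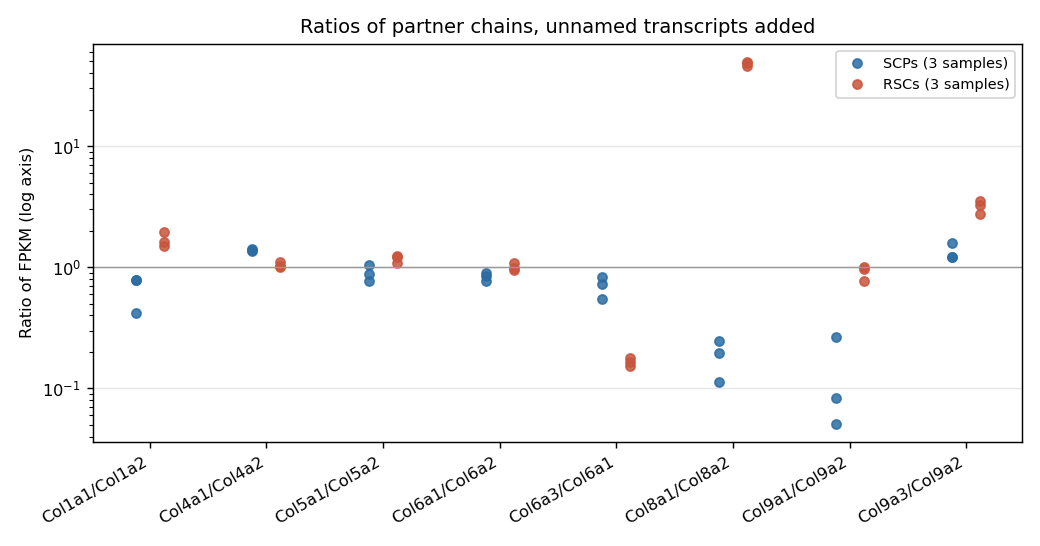
Ratio of the FPKM of partner chains (vertical log axis) in each SCP (blue) and RSC (red) sample with unnamed transcripts added, for the 8 pairs that are defined in all 6 samples. Col8a1/Col8a2 changes sides of 1 between the groups, from below 0.25 in the SCPs to above 46 in the RSCs, and Col4a1/Col4a2 stays between 1.00 and 1.41.

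The comparison was repeated over all genes with the unnamed transcripts added. This brought 36 of the 44 genes past the filter, and 17 were higher in the RSCs (47.2%) and 9 in the SCPs (25.0%), against 23.2% and 34.2% of the 14019 genes compared in that table. More than 4-fold were 10 in the RSCs and 6 in the SCPs, 27.8% and 16.7% of the collagens against 8.57% and 4.58% of all genes. The median log2 fold change was 0.46 for the collagens and -0.24 for all genes. None of the 18 collagens called by name lost its call, and 8 were added: Col4a4, Col6a3, Col6a6, Col9a1 and Col18a1 on the RSC side and Col13a1, Col24a1 and Col25a1 on the SCP side. Some unnamed transcripts over a collagen lie under another assembled gene and were not added, at 14.9 FPKM for Col12a1 in RSC 2, 9.13 and 3.78 for Col25a1 in SCP 2 and SCP 3, and 13.9 for Col27a1 in RSC 3.

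**Figure D4:**
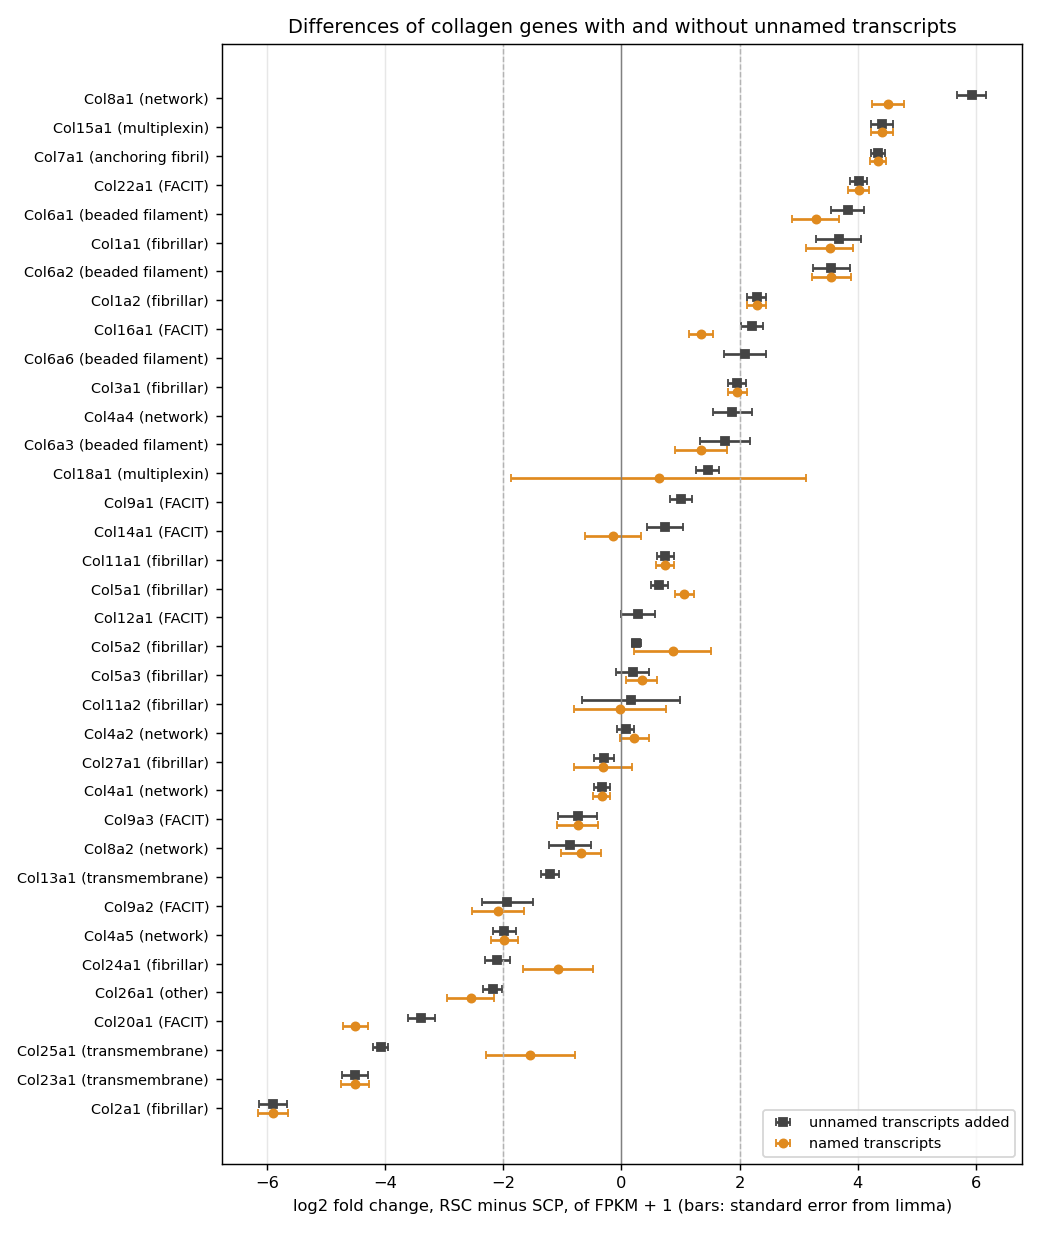
Log2 fold change, RSC minus SCP, on the log2(FPKM + 1) scale with the limma standard error (horizontal axis) for the 36 collagens compared with unnamed transcripts added (black squares) and, where compared, from named transcripts (orange dots), with dashed lines at 4-fold. Most pairs of marks lie close together, while Col18a1 and Col25a1 move to the outside and have a far smaller standard error in black.

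Genes of the collagen pathway that build and process the chains were counted from a list of 31, of which 26 had a row and 24 were compared. Of these, 11 were higher in the RSCs (45.8%, against 18.1% of all genes) and 4 in the SCPs (16.7%, against 22.4%), and the median log2 fold change was 0.46 against -0.17 for all genes. Among named transcripts the largest differences toward the RSCs were those of Adamts2, which cuts off the front end of procollagen, and Pcolce, which enhances removal of the back end. Adamts2 had 0.553, 0 and 0 FPKM in the SCPs and 54.8, 67.9 and 61.1 in the RSCs (log2 fold change 5.74, adjusted p = 3e-05), and Pcolce had 25.8, 45.6 and 34.2 against 220, 286 and 234 (2.80, adjusted p = 0.000249). With unnamed transcripts added Adamts2 had 2.23, 4.47 and 2.74 FPKM in the SCPs against 73.5, 100.3 and 88.5 in the RSCs, a log2 fold change of 4.44, and Loxl4 (3.45) and Adamts14 (2.89) lay above Pcolce (2.80). Higher in the SCPs by name were, with the largest differences, P4ha3, a subunit of prolyl hydroxylase, with 12.5, 18.7 and 14.2 FPKM against 2.85, 1.57 and 5.36 (log2 fold change -2.0, adjusted p = 0.00592), and Plod2, a lysyl hydroxylase, with 22.5, 21.7 and 23.6 against 5.95, 6.68 and 6.21 (log2 fold change -1.70, adjusted p = 0.000155). Adamts3 (-2.64) lay beyond P4ha3 (-2.52), and Colgalt2 (-2.27) beyond Plod2 (-1.80), once unnamed transcripts were added. Serpinh1, the collagen chaperone and the most abundant gene of the list, was higher in the SCPs, with 1269, 1107 and 1456 FPKM against 849, 824 and 927 (log2 fold change -0.55, adjusted p = 0.00927). The list summed to 2382, 2322 and 2690 FPKM in the SCPs and 2481, 2630 and 2646 in the RSCs, which overlap. Of 11 collagen receptors 5 were compared, and 1 was higher in each direction, a share near that over all genes (18.1% and 22.4%). Itgb1, the shared beta chain of collagen-binding integrins, was higher in the RSCs (log2 fold change 0.83, adjusted p = 0.000388), and Mrc2, an endocytic collagen receptor, was higher in the SCPs (log2 fold change -1.69, adjusted p = 0.000257). Ddr1, a receptor kinase for collagen, was listed at 0 by name in all 6 samples. With unnamed transcripts added it had 12.2, 17.1 and 14.9 FPKM in the SCPs and 116, 107 and 120.1 in the RSCs. Counted this way, 7 receptors were compared, and Ddr1, Itgb1 and the integrin chains Itga1 and Itga10 were higher in the RSCs and Mrc2 and Itga2 in the SCPs, where 23.2% and 34.2% of all genes were. The processing list then had 11 higher in the RSCs and 5 in the SCPs.

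Markers of other cells that the preparations could hold were read in the same samples, and several of these lists differed between the groups, in both directions. The counts of markers that follow stand against 18.1% of all genes higher in the RSCs and 22.4% higher in the SCPs by name, and 23.2% and 34.2% with unnamed transcripts added. The glial factor Sox10 was present in every sample, with 179, 175 and 181 FPKM in the SCPs and 149, 143 and 143 in the RSCs. S100b, a marker of more mature Schwann cells, had 3.21, 11.7 and 19.3 FPKM against 924, 782 and 843. The 8 fibroblast markers summed to 294, 249 and 303 FPKM in the SCPs and 1600, 3179 and 2797 in the RSCs, and 5 of the 8 were higher in the RSCs. The RSC sums with unnamed transcripts added were 3203, 3245 and 2817 FPKM, the rise in RSC 1 being mostly Dcn, which went from 1175 to 2744 there. The most abundant was Dcn in the RSCs (1175, 2697 and 2308 FPKM, against 8.60, 14.9 and 23.9 in the SCPs) and Fbln1 in the SCPs (206, 165 and 166 against 42.5, 50.6 and 46.0), the member higher in the SCPs. Pdgfra, expressed by nerve fibroblasts, had 47.0, 43.7 and 41.7 FPKM against 47.6, 61.3 and 50.6 (adjusted p = 0.130). All 6 leukocyte markers compared were higher in the RSCs, with sums of 4.90, 13.2 and 22.3 against 1916, 2200 and 2274 FPKM, led by Lyz2, and Cd3e was listed at 0 in the SCPs. All 7 skeletal muscle markers were higher in the SCPs, with sums of 69.9, 124 and 292 FPKM against 5.24, 5.75 and 7.93, led by Actc1 there, and Myod1 and Myf5 were listed at 0 in the RSCs. The 4 erythroid genes compared were higher in the SCPs, and the 5 markers, led by Hbe1, summed to 23640, 16660 and 74550 FPKM there and to at most 1.43 in the RSCs. None of 7 endothelial markers passed the test, with sums of 39.0, 65.6 and 47.2 against 77.0, 69.2 and 70.7 FPKM led by Tie1. The endothelial sums with unnamed transcripts added were 61.98, 113.3 and 78.45 against 109.4, 94.44 and 91.38 FPKM, which overlap. Of 5 mural markers compared by name Cspg4 alone passed, higher in the RSCs, with list sums of 73.0, 249 and 143 against 175, 168 and 110 led by Acta2. The pericyte marker Rgs5 was listed at 0 in the RSCs by name, and with unnamed transcripts added it had 4.98, 9.99 and 5.29 FPKM in the SCPs and 98.4, 79.9 and 75.3 in the RSCs (log2 fold change 3.51). Pdgfrb, a receptor of mural cells and fibroblasts, then passed as higher in the SCPs (-0.60), and the mural sums became 77.1, 266 and 159 against 282, 256 and 283. Of 5 neuronal markers compared Stmn2 and Elavl4 were higher in the SCPs, with sums of 49.9, 28.0 and 39.3 against 28.0, 17.5 and 22.1 led by Tubb3. Among perineurial markers Cldn1 and Slc2a1 were higher in the RSCs and Moxd1 in the SCPs, where it led the list, with sums of 269, 289 and 310 against 90.6, 138 and 148 FPKM led by Slc2a1, and Lypd2 was listed at 0 throughout. Itgb4, an integrin chain of perineurial cells, had 0, 0.396 and 0.605 FPKM by name in the SCPs and 0, 48.2 and 71.8 in the RSCs. With unnamed transcripts added it had 0.566, 0.396 and 0.605 against 143, 179 and 214 (log2 fold change 6.87), and the perineurial sums of 372, 289 and 310 against 234, 268 and 290 then overlapped. On that table Mfap5 also passed among the fibroblast markers and Cd3e among the leukocyte markers, both higher in the RSCs, Isl1 among the neuronal and Alas2 among the erythroid markers passed as higher in the SCPs, and the endothelial and muscle counts did not change. Of the 2 cartilage markers compared there, Comp was higher in the RSCs and Hapln1 in the SCPs. The part of these cells in the collagen differences was not tested, and in bulk RNA fewer cells of a type and less RNA per cell cannot be told apart.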

How the data were processed

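RNA of 3 SCP and 3 RSC samples was sequenced as stranded, paired-end mRNA libraries. The submitters' processing notes name FastQC 0.11.2, TopHat2 2.1.0 and Cufflinks 2.2.1 with the rn6 genome. The authors deposited, for each sample, a Cufflinks table of transcripts in FPKM beside a coverage column, a signal that served here to estimate relative depth. As the tables hold FPKM and no counts, no count test was run.

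FPKM of named transcripts were summed by gene symbol, leaving out 77 transcripts per table whose names had become dates. In a second table, unnamed transcripts were added to the named gene of the same gene identifier that they overlapped most. Coordinates come from those tables (rn6) and count from 1. Promoters are RefSeq sequences on GRCr8, and other features of the genome were not used here.

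The groups were compared with limma (version 3.58.1, R 4.3.3) on values of log2(FPKM + 1) as the RSC mean minus the SCP mean. Genes averaging 1 FPKM or more across all samples entered, the variance followed a trend on expression, and replicate number was not a term. A fold change on this scale understates the change of low genes. Calls used p under 0.01, two-sided and unadjusted, and a log2 fold change over 2 for 4-fold. Adjustment was by Benjamini and Hochberg across every gene compared, 13003 by name and 14019 with unnamed transcripts added. SD and n = 3 describe samples. An exact 0 can be a failed estimate, so such genes are said to be listed at 0. On simulated data of 13003 genes with 200 changed by a log2 value of 3, 92% were recovered and 1.13% of unchanged genes were called. Before that change every simulated gene was given a mean of at least 3 on the log2(FPKM + 1) scale, with normal spread. The 2 rates therefore do not describe genes at low levels or genes listed at 0 in some samples.

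Every member is named: each sample's values are given for those with p under 0.01 or a mean of at least 10 FPKM in a group, and ranges for most others. Classes, partner chains and lists of processing genes, receptors and cell markers came from textbook knowledge, and the 2 genes of largest change in each direction are named from the processing list, with Serpinh1 and Ddr1 named after their values were seen. The members and lists were chosen with earlier results of these data known. The alternatives tried were the pseudocount, the filter, quantile and median-of-ratios scaling, no variance trend, a replicate block, adjusted p, the highest named transcript, unnamed transcripts added and leaving out each library.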

Additional observations from a re-analysis of the deposited data

How the results depend on the processing

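The 12 collagens higher in the RSCs numbered between 11 and 17 under every alternative, and the 6 higher in the SCPs between 5 and 9. Of the 31 compared by name, none of those called changed its direction under any alternative, and 5 that were not called (Col4a2, Col11a2, Col14a1, Col18a1 and Col27a1) changed sign in at least 1. Of those compared in an alternative, Col9a2 and Col11a1 lost their calls when a library was left out, and Col4a5 was no longer compared with a mean of at least 5 FPKM.

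The median log2 fold change of the collagens was 0.34, and 0.87 with a mean of at least 5 FPKM, where fewer genes are tested, and 0.55 with median-of-ratios scaling. It ran from 0.10 to 0.72 as each library was left out. With unnamed transcripts added, the log2 ratio of summed FPKM was -0.50 for FACITs (-1.14 by name), 1.9994 for multiplexins (3.89) and 0.86 for network collagens (0.33). Col18a1, mostly listed at 0 by name, gains most of the multiplexin level, Col8a1 (RSC mean 45.3 FPKM by name and 123 with them) most of the network level, and Col16a1 (53.0 and 97.1) and Col12a1 most of the FACIT level in the RSCs. Median-of-ratios scaling raised the value of every class by the same amount, fibrillar from 2.13 to 2.35, FACIT from -1.14 to -0.93 and anchoring fibril from 5.73 to 5.95, the last alone by more than its spread between samples.

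The groups share replicate numbers, but samples of the same number did not deviate together (correlations over genes 0.0435, -0.00491 and 0.0259). Each deviation is from a mean of 3 samples, so these values cannot decide whether the numbers pair the samples. With the replicate number as a block, 13 collagens were higher in the RSCs and 6 in the SCPs, the 1 added being Col6a3. Values near or under 1 FPKM, such as those of Col10a1 and Col28a1, are limited by depth, which is known only relative to SCP 2. Quantile normalization left the counts at 12 and 6.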
